A study of Mus musculus with 21 samples.

Results

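The interferon-inducible GTPases of the guanylate-binding protein (GBP) and immunity-related GTPase (IRG) families were followed in endothelial cells sorted from mouse tumours. The members were chosen by gene symbol and were Gbp2, Gbp3, Gbp4, Gbp5, Gbp6, Gbp7, Gbp9, Igtp, Irgm1 and Iigp1. These 10 symbols matched 11 of the 45706 rows of the deposited table, because the symbol Gbp6 stands on 2 rows. The row ENSMUSG00000104713 has the name Gbp6 in the GENCODE M21 annotation and is called Gbp6 here. The row ENSMUSG00000079362 is named Gm43302 in that annotation and is called Gm43302 here. All 11 rows passed the filter on low values (at least 1 TPM in at least 10 libraries), and the 10 rows other than Gm43302 were above 8 TPM in every library.

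GBP and IRG proteins are among the most strongly induced products of interferon-gamma signalling. The cytokine binds the receptor chains Ifngr1 and Ifngr2, the kinases Jak1 and Jak2 pass the signal on, and the transcription factor Irf1, itself induced by interferon-gamma, switches on GTPase genes. GBPs are large dynamin-like GTPases that assemble on the membranes of vacuoles around microbes. IRGs divide into effectors such as Iigp1, which coat and break those vacuoles, and regulators such as Irgm1 and Igtp, which sit on the cell's own membranes and hold the effectors inactive there. Endothelial cells are known to make GBPs under inflammatory cytokines.

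The cells were CD31-positive cells sorted by flow cytometry from tumours of E0771.lmb, a mammary carcinoma cell line of mouse origin, in adult mice, taken between day 14 and day 16. The KO mice were Shb iECKO, in which floxed Shb (Shb flox/flox) was deleted by Cdh5-CreERt2, a tamoxifen-activated Cre recombinase driven by the endothelial Cdh5 promoter. The controls were wild-type mice (WT), and tamoxifen was given before tumour growth per the labels' protocols, which do not state whether the controls carried the floxed allele or the Cre. The 11 WT libraries came from 9 tumours and the 10 KO libraries from 8 tumours, in 4 experiments, so some libraries share a tumour and the p-values in part measure the spread within tumours. The protocol text also names a Vav1-cre line and a CD45 bead step, to which the labels assign no library.

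By column header, experiment 1 held 3 WT and 2 KO libraries and experiment 2 held 3 and 4. Experiment 3 held 2 and 2, and experiment 4 held 3 and 2. Levels are TPM, a length-scaled share of each library that keeps no record of read depth. Shb had a WT mean of 37.3 ± 18.1 TPM (SD, n = 11) against 22.8 ± 16.6 TPM (SD, n = 10) for KO, and its log2 difference of -0.91 did not pass over all genes (limma adjusted p = 0.820). By experiment, in order, that difference was 0.29, -1.59, -0.06 and -1.85, so Shb does not set apart the libraries labelled KO in experiments 1 and 3, and KO and WT are used here as the labels' names. In experiment 2 the header of KO replicate 3 stands on 2 columns, and the labels do not say which sample the second one is. The labels also list a KO replicate 3 of experiment 4, and no column has that header. One of these 2 columns may therefore be that sample. The 2 columns are called KO replicates 3a and 3b, and 3b is written with more decimals, as are the columns of experiment 4. In 3 libraries Pecam1, which encodes CD31, was low. Experiment 4 held 2 of them, WT replicate 2 with 95.04 TPM and KO replicate 2 with 242 TPM. The third was WT replicate 1 of experiment 2, with 461 TPM. The other 18 libraries had 710 TPM or more.

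The genes lie in clusters. On GRCm38 the annotation places Gbp5 (chr3:142493978-142522344), Gbp7 (chr3:142530342-142550149), Gbp3 (chr3:142560026-142573209) and Gbp2 (chr3:142620602-142638008) within 144 kb of the plus strand of chromosome 3. Gbp9 (chr5:105077630-105139539), Gbp4 (chr5:105115767-105139586), Gm43302 (chr5:105214907-105293695) and Gbp6 (chr5:105270702-105293698) lie within 216 kb of the minus strand of chromosome 5. Irgm1 (chr11:48861968-48871683, minus strand) and Igtp (chr11:58199556-58207591, plus strand) lie apart on chromosome 11, and Iigp1 (chr18:60376027-60392634) lies on the plus strand of chromosome 18. All 11 are protein-coding genes in that annotation.

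Gm43302 is a gene model that spans its neighbours. It shares 81.6% of its exon bases with Gbp10 and Gbp6 on the same strand, and 99.4% of the stretches of 75 bases in its longest transcript also occur in transcripts of other genes. Gbp6 shares 29.0% of its exon bases with Gm43302, and 55.2% of its stretches occur elsewhere. How the authors' counting split such reads is not given in the sources used here, so the levels of Gbp6 and Gm43302 are uncertain. The share was 11.4% for Gbp7, 8.37% for Igtp (with Irgm2), 5.35% for Gbp4, 3.76% for Gbp9, 2.68% for Gbp3, 1.03% for Gbp5 and 0.983% for Gbp2. Irgm1 and Iigp1 shared 0 stretches with another gene.

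The promoters are shown as a description, and a link between them and the members' levels was not tested. RefSeq promoter windows (GRCm38.p6, 250 bases before to 50 bases after a start) were at hand for 6 of the 10 symbols, namely Gbp5, Gbp7, Gbp3, Gbp2, Irgm1 and Igtp, with 7 windows in all. The core of the interferon-stimulated response element bound by interferon regulatory factors was searched as 2 copies of GAAA with 2 bases between them, or of TTTC on the other strand, and it stood in a window of all 6 genes. Counted in the same way, it stood in a window of 3.99% of all 27025 genes with one. The pattern TTCNNNGAA, which reads alike on both strands, is known as the gamma-activated site, and it stood in 3 of the 6 genes and in 9.55% of all genes. The patterns did not overlap each other in these windows, although 2 matches of the first overlapped in Gbp3 and in Irgm1. A start here is the RefSeq start of the window, which can differ from the end of the GENCODE gene span given above. By those spans the matches in Gbp5, Gbp2 and Irgm1 lie inside the gene, near its 5′ end. A match describes letters and does not show binding.

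The 3 promoters that hold both patterns are given over the 250 bases before the start, 5′ to 3′ on the gene's strand, with every match in capitals.
Gbp5, chr3:142496684-142496933, plus strand: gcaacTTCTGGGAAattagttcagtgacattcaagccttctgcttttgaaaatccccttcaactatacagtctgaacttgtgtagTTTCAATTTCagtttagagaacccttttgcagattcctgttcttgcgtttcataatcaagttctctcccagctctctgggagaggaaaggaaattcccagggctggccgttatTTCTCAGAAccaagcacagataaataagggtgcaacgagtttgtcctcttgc
Gbp7, chr3:142530086-142530335, plus strand: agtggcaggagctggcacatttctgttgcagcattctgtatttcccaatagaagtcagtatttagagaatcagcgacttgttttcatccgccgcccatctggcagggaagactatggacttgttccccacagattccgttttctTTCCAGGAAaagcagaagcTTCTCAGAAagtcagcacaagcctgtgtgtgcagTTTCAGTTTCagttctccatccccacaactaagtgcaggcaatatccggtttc
Igtp, chr11:58199306-58199555, plus strand: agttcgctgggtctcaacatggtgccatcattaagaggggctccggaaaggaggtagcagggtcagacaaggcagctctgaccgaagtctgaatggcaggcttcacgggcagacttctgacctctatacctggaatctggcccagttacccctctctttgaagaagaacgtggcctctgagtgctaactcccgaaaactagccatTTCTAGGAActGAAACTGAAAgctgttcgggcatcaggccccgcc

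For the 3 promoters with the first pattern alone, 60 bases around it are given in the same way.
Gbp2, chr3:142620579-142620638, plus strand: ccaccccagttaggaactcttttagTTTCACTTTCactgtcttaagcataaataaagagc
Gbp3, chr3:142559974-142560033, plus strand: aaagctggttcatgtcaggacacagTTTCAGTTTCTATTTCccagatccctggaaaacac
Irgm1, chr11:48871421-48871480, minus strand: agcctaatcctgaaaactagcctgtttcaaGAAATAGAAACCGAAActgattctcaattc

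**Figure D1:**
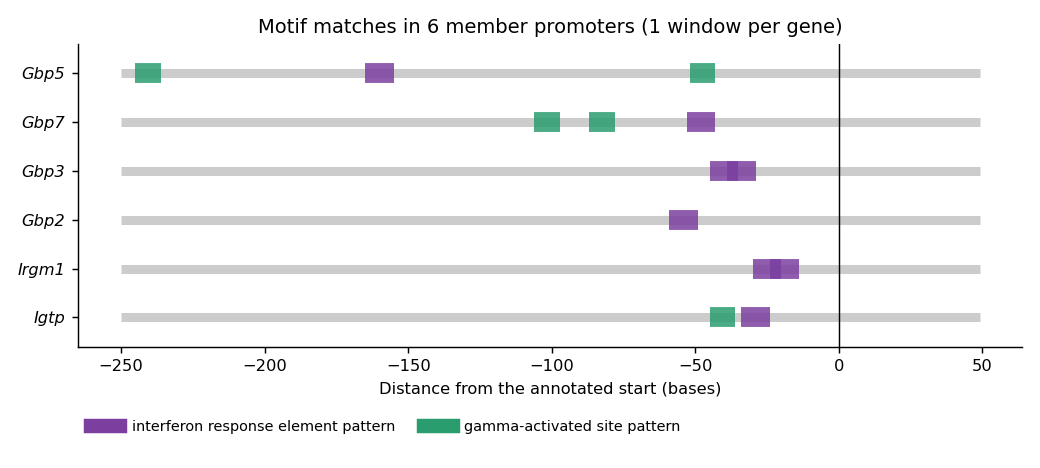
Matches to the interferon-stimulated response element and gamma-activated site patterns, by distance in bases from the RefSeq start, for the 6 members with a RefSeq promoter window. The first pattern lies within 59 bases of the start in 5 of the 6 genes and 165 bases before it in Gbp5.

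The GTPase transcripts were abundant in these cells. Per length, the order of the mean level over 21 libraries was Gbp4 (510 ± 343 TPM, SD), Iigp1 (476 ± 190 TPM), Gbp2 (269 ± 112 TPM), Irgm1 (193 ± 78.6 TPM), Gbp9 (158 ± 76.5 TPM), Gbp5 (149 ± 74.4 TPM), Gbp6 (132 ± 70.5 TPM), Igtp (131 ± 49.9 TPM), Gbp7 (99.9 ± 40.6 TPM), Gbp3 (94.4 ± 36.4 TPM) and Gm43302 (9.45 ± 7.47 TPM). Gbp4 ranked 149th and Gbp3 ranked 1466th by mean TPM among the 13503 genes tested, while Gm43302 ranked 9225th. The 10 named genes together took 221 to 3623 TPM of a library, with a median of 2403 TPM.

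Some neighbours in that order changed places between experiments. Gbp4 was above Iigp1 in 9 of 21 libraries, and Gbp6 was above Igtp in 10 of 21. Both orders held in every library of experiment 2 by header, where Gbp4 averaged 836 TPM and Iigp1 497 TPM. In the mean of each other experiment Iigp1 was above Gbp4 and Igtp above Gbp6. Gbp2 was above Irgm1 in 21 of 21, Iigp1 above Gbp2 in 20 of 21 and Igtp above Gbp7 in 20 of 21. The remaining neighbours of the 10 named genes held their order in 15 or 16 of 21 libraries. Within libraries the effector Iigp1 stood at 2.50 ± 0.622 times the regulator Irgm1 (SD, n = 21), and Igtp stood at 0.714 ± 0.168 times Irgm1 (SD, n = 21). Without the 3 libraries low in Pecam1 these ratios were 2.51 ± 0.527 and 0.679 ± 0.0736 (SD, n = 18).

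**Figure D2:**
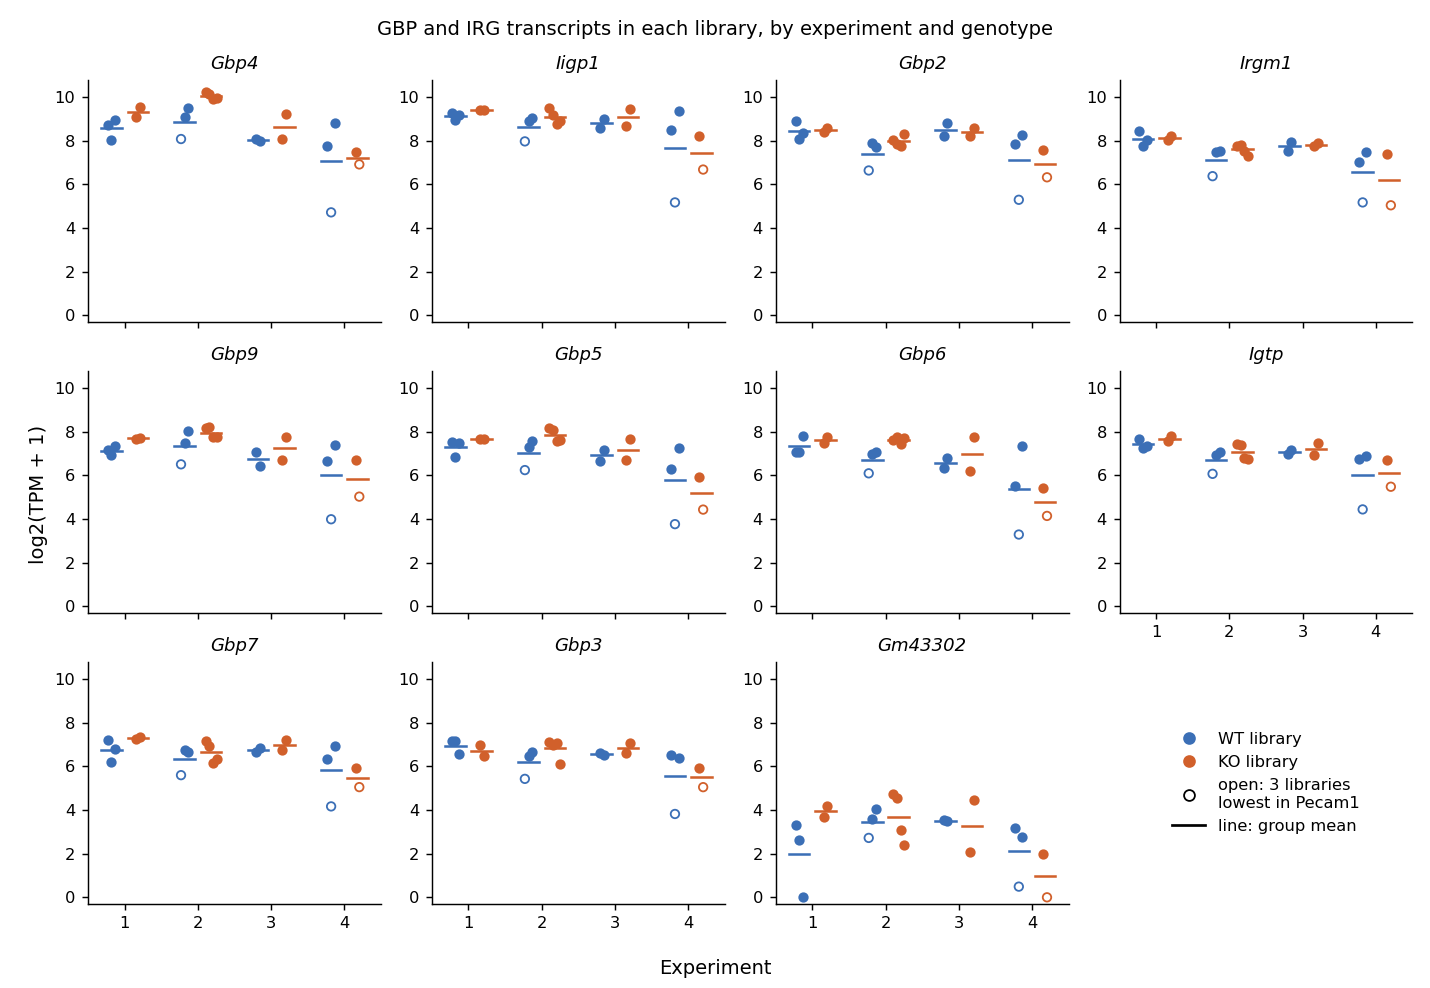
Level of each of the 11 rows as log2(TPM + 1) in each of the 21 libraries, by experiment and genotype; lines are group means and open circles the 3 libraries lowest in Pecam1. The open circles are the 3 lowest points for Gbp2, at 38.2, 79.2 and 98.6 TPM, and the KO libraries of experiment 2 stand highest for Gbp4, between 957 and 1212 TPM.

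The comparison of KO with WT asked whether endothelial deletion of Shb moved these transcripts. None of the 11 rows passed the test (limma on log2(TPM + 1) with an experiment term, adjusted over all genes, adjusted p from 0.820 to 0.976), where 0.00741% of all genes tested passed. None had an unadjusted p under 0.05 either, and 0.948% of all genes did with a higher level in KO. The fitted difference was above 0 for all 11, against 36.0% of all genes. Their median was 0.23 on the log2 scale, and that of all genes was -0.11. The differences ran from 0.11 for Irgm1 to 0.72 for Gbp4. The median of the members depended on single libraries: it was 0.08 without WT replicate 2 of experiment 4, 0.12 without WT replicate 1 of experiment 2, 0.35 without WT replicate 3 of experiment 4 and 0.39 without KO replicate 2 of experiment 4.

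Gbp4, a member reported in mouse to restrain the antiviral factor Irf7, had the highest fitted difference. Its WT libraries ran from 25.3 to 724 TPM with a median of 270 TPM, and its KO libraries from 120 to 1212 TPM with a median of 675 TPM. The groups overlapped, with 5 of the 10 KO libraries above every WT library, 4 of them in experiment 2 and 1 in experiment 1. The log2 difference was 0.72 (SE 0.35, 95% interval -0.02 to 1.45, unadjusted p = 0.0552, limma adjusted p = 0.820), a level 1.64 times that of WT on the log2(TPM + 1) scale.

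The IRG members had fitted differences from 0.11 to 0.24. Iigp1 ran from 35.1 to 661 TPM in WT (median 490 TPM) and from 102 to 720 TPM in KO (median 533 TPM), with a log2 difference of 0.22 (SE 0.36). Irgm1 ran from 35.1 to 353 TPM in WT (median 184 TPM) and from 31.9 to 302 TPM in KO (median 214 TPM), with a log2 difference of 0.11 (SE 0.29). Igtp ran from 20.7 to 202 TPM in WT (median 126 TPM) and from 43.7 to 222 TPM in KO (median 144 TPM), with a log2 difference of 0.24 (SE 0.26). In each of the 3 genes the KO and WT ranges overlapped over most of their length.

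Among the GBPs of chromosome 3, Gbp2, which coats vacuoles of Toxoplasma in mouse cells, ran from 38.2 to 483 TPM in WT (median 273 TPM) and from 79.2 to 387 TPM in KO (median 280 TPM), with a log2 difference of 0.15 (SE 0.30). Gbp5, which in mouse promotes assembly of the Nlrp3 inflammasome, ran from 12.6 to 192 TPM in WT (median 141 TPM) and from 20.6 to 287 TPM in KO (median 201 TPM), with a log2 difference of 0.29 (SE 0.34). Gbp7, linked in mouse to the phagocyte oxidase and autophagy, had a log2 difference of 0.20 (SE 0.29), and Gbp3 one of 0.19 (SE 0.29). Their medians were 100.1 TPM in WT and 115 TPM in KO for Gbp7, and 91.8 TPM and 110.0 TPM for Gbp3. In all 4 genes the ranges of the groups overlapped.

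The other rows of chromosome 5 had fitted differences from 0.23 to 0.40. Gbp9 ran from 14.9 to 260 TPM in WT (median 133 TPM) and from 31.6 to 293 TPM in KO (median 212 TPM), with a log2 difference of 0.40 (SE 0.33). Gbp6 ran from 8.78 to 223 TPM in WT (median 127 TPM) and from 16.7 to 218 TPM in KO (median 185 TPM), with a log2 difference of 0.31 (SE 0.36). Gm43302 ran from 0 to 15.6 TPM in WT (median 8.01 TPM) and from 0 to 25.8 TPM in KO (median 9.71 TPM), was listed at 0 in 2 libraries, and had a log2 difference of 0.23 (SE 0.52). As with the other members, the groups overlapped.

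**Figure D3:**
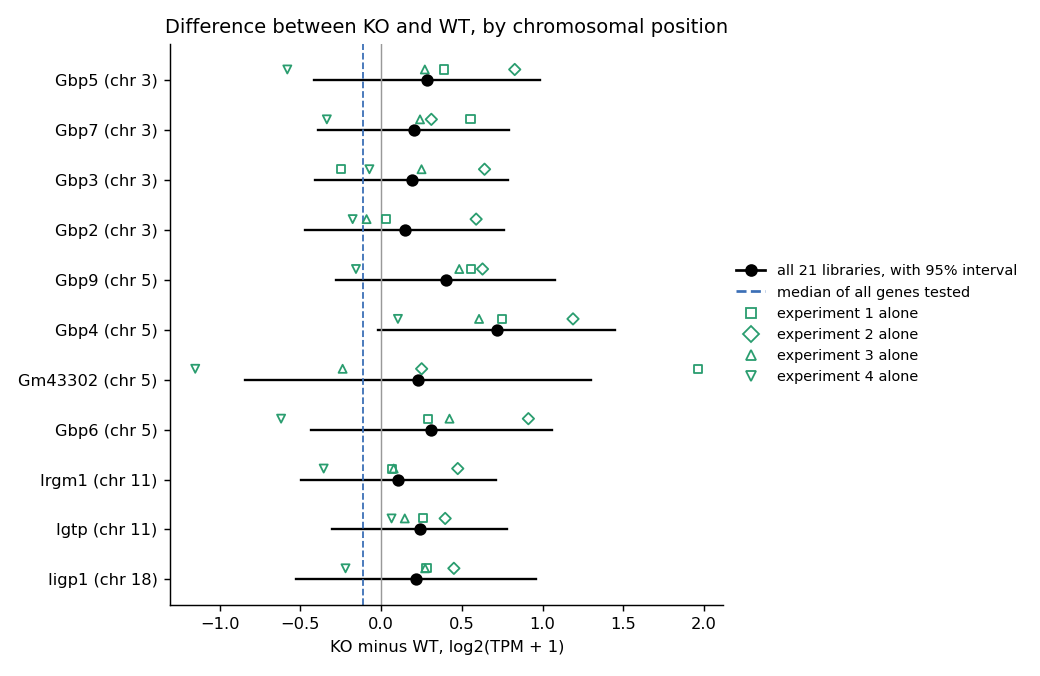
KO minus WT difference of log2(TPM + 1) for the 11 rows in chromosomal order, with the fitted value and its 95% interval over 21 libraries, and the difference of group means within each experiment as open symbols. All 11 intervals include 0, and Gbp4 has the highest fitted value, 0.72.

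Markers of other cells also lay at different levels in the groups, with overlapping ranges, and are given beside these differences. The summed level of 10 macrophage and monocyte markers ran from 59.3 to 5036 TPM in WT (median 239 TPM) and from 31.0 to 217 TPM in KO (median 62.3 TPM), and that of 10 pan-leukocyte markers from 110 to 2927 TPM in WT (median 208 TPM) and from 93.2 to 288 TPM in KO (median 147 TPM). Both WT maxima came from WT replicate 2 of experiment 3, which also had the highest fibroblast sum, 576 TPM. The next highest WT values were 620 TPM and 504 TPM, both in WT replicate 2 of experiment 4. The summed level of 12 endothelial markers ran from 575 to 11666 TPM in WT (median 7763 TPM) and from 1670 to 10896 TPM in KO (median 9279 TPM). The fibroblast list (7 markers) had medians of 58.0 TPM in WT and 29.1 TPM in KO, the T and NK cell list (8 markers) 21.7 and 17.0 TPM, and the tumour epithelial list (7 markers) 4.86 and 3.92 TPM. No marker of these lists was at 0 in every library, but the filter on low values kept only 1 of the 8 T and NK markers and 1 of the 7 epithelial markers. The epithelial sum ran from 2.55 to 272 TPM in WT and from 0 to 137 TPM in KO. The highest value of each group came from a library low in Pecam1. With the mean of the leukocyte and macrophage markers as a covariate, 10 of the 11 differences turned below 0, with a median of -0.22 beside -0.25 for all genes, and Gbp4 stayed at 0.14 (limma adjusted p = 0.890). The part of these cells in the differences was not tested, and in sorted bulk RNA fewer cells of a type and less RNA per cell cannot be told apart.

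The experiments differed in how the genotypes lay. In experiment 1 every KO library was above every WT library for 6 of 11 rows (Gbp4, Gbp5, Gbp7, Gbp9, Iigp1 and Gm43302), where 18.0% of all genes were so placed. In experiment 2 this held for 2 of 11 (Gbp4 and Gbp6), where 1.63% of all genes were so placed. In experiment 3 it held for 0 of 11 beside 18.1% of all genes, and in experiment 4 for 0 of 11 beside 1.61%. The test for a genotype difference that depends on the experiment called 0 of 11 members (limma adjusted p = 1.00 for each) and 0% of all genes.

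For Gbp4 experiment 2 gave the widest gap. Its KO libraries stood at 1212, 1144, 957 and 1010 TPM and its WT libraries at 270, 537 and 724 TPM, a difference of 1.19 between the log2 means. The value of 270 TPM is that of WT replicate 1, which is low in Pecam1. The fitted log2 difference of Gbp4 across experiments was 0.57 without that library and 0.72 with it. In experiment 1 KO stood at 539 and 759 TPM and WT at 421, 266 and 492 TPM, a difference of 0.75. In these 2 experiments the genotypes did not overlap. In experiment 3 KO stood at 269 and 591 TPM and WT at 270 and 253 TPM, a difference of 0.61. In experiment 4 KO stood at 178 and 120 TPM and WT at 213, 25.3 and 453 TPM, a difference of 0.10. Here the genotypes overlapped, and WT replicate 2, the lowest value, is the library lowest in Pecam1. The value of 1010 TPM is that of KO replicate 3b, and the other 3 KO libraries of experiment 2 were above its WT libraries as well.

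The other members were higher in KO in experiment 2 by 0.25 (Gm43302) to 0.91 (Gbp6) on the log2 scale. The share of all genes above 0 within experiment 2 alone is not given here. For every member WT replicate 1 was the lowest WT library of that experiment. Without it 10 of 11 fitted differences across experiments were above 0, with 0.002 for Gbp2 and -0.029 for Irgm1. In experiment 2 Gbp6 stood at 194, 214, 176 and 208 TPM in KO and at 67.5, 127 and 132 TPM in WT. The value of 67.5 TPM is that of WT replicate 1, which is low in Pecam1. The fitted log2 difference of Gbp6 across experiments was 0.18 without that library and 0.31 with it. In experiment 4, 9 of the 11 differences were below 0, down to -0.62 for Gbp6 and -1.15 for Gm43302. Gbp4 at 0.10 and Igtp at 0.06 were above 0. The share of all genes below 0 within experiment 4 alone is not given here, but the differences of all genes also depended on this experiment. Over all libraries 36.0% of all genes were above 0, with a median of -0.11. With experiment 4 left out the share was 54.6% and the median 0.04. The WT libraries of experiment 4 lay far apart, at 45.4, 8.78 and 163 TPM for Gbp6.

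Levels differed between experiments for 7 of 11 members (Gbp4, Gbp6, Gbp5, Irgm1, Igtp, Gbp9 and Gbp2, limma F test, adjusted p from 0.00923 to 0.0397), where 29.1% of all genes did. Gbp4 averaged 836 ± 343 TPM in experiment 2 (SD, n = 7), 495 ± 180 TPM in experiment 1 (SD, n = 5), 346 ± 164 TPM in experiment 3 (SD, n = 4) and 198 ± 159 TPM in experiment 4 (SD, n = 5). Gbp2 took another order, with 361 ± 78.9 TPM in experiment 1 (SD, n = 5), 356 ± 73.6 TPM in experiment 3 (SD, n = 4), 224 ± 65.9 TPM in experiment 2 (SD, n = 7) and 169 ± 109 TPM in experiment 4 (SD, n = 5). The number of members called fell to 1 (Gbp4) without the 3 libraries low in Pecam1, where 14.2% of all genes were called. It fell to 3 without WT replicate 2 of experiment 4 alone (22.9% of all genes), to 2 without KO replicate 2 of experiment 4 alone (17.4% of all genes) and to 1 (Gbp6) with KO replicate 3a placed in experiment 4 (17.3% of all genes). Counts of 1 or 2 of 11 are near or below those shares.

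The ratio of Gbp4 to Gbp2 within a library shows that difference in order. This ratio was chosen after its values were seen and is given with no test. It ran from 3.20 to 4.97 in the KO libraries of experiment 2 and from 2.29 to 3.49 in its WT libraries, which overlapped. In the 14 libraries of the other experiments it ran from 0.567 to 1.97. This counts KO replicates 3a (4.37) and 3b (3.20) in experiment 2, as their header states. With either of them in experiment 4, the other experiments would overlap experiment 2. The mean ratio of the WT libraries was 1.49 ± 0.949 (SD, n = 11), and that of the KO libraries 2.56 ± 1.58 (SD, n = 10).

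**Figure D4:**
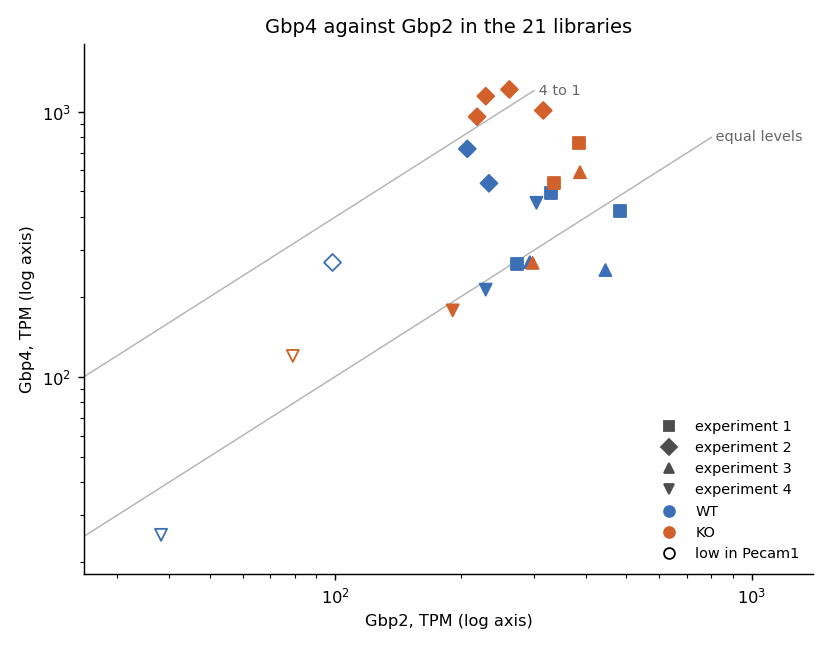
Gbp4 against Gbp2, TPM on log axes, in the 21 libraries; symbols are experiments, colours genotypes, open symbols the 3 libraries low in Pecam1, and the lines mark equal levels and a ratio of 4 to 1. The 7 libraries of experiment 2 by header, KO replicates 3a and 3b among them, have ratios from 2.29 to 4.97, and the other 14 from 0.567 to 1.97.

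The members varied together from library to library. Across the 21 libraries, with experiment means removed, the 45 pairs among the 10 named genes had Pearson r from 0.74 (Gbp6 and Gbp3) to 0.96 (Iigp1 and Igtp) with a median of 0.90. The points share their library, its makeup and its scaling, and the values are a description. Without the 3 libraries low in Pecam1 the r ran from -0.06 (Gbp2 and Gbp3) to 0.95 (Iigp1 and Gbp5) over 18 libraries, with a median of 0.64.

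These 3 libraries were the lowest in the members. The mean log2(TPM + 1) of the 10 named genes was 4.38 for WT replicate 2 and 5.42 for KO replicate 2, both of experiment 4, and 6.50 for WT replicate 1 of experiment 2. It ran from 6.73 to 8.12 in the other 18. In the same order, the 20 most abundant genes took 52.5%, 71.1% and 51.9% of the TPM of these 3 libraries, and 45.9% or less in the other 18. Mitochondrial genes took 17.7%, 23.0% and 1.27%. The part of this makeup in the low member levels was not tested. Without these 3 libraries 9 of the 11 differences between KO and WT were above 0, with a median of 0.12. Of all genes 45.8% were above 0 in that fit, with a median of -0.03. The difference of Gbp4 was 0.48 (limma adjusted p = 0.999).

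**Figure D5:**
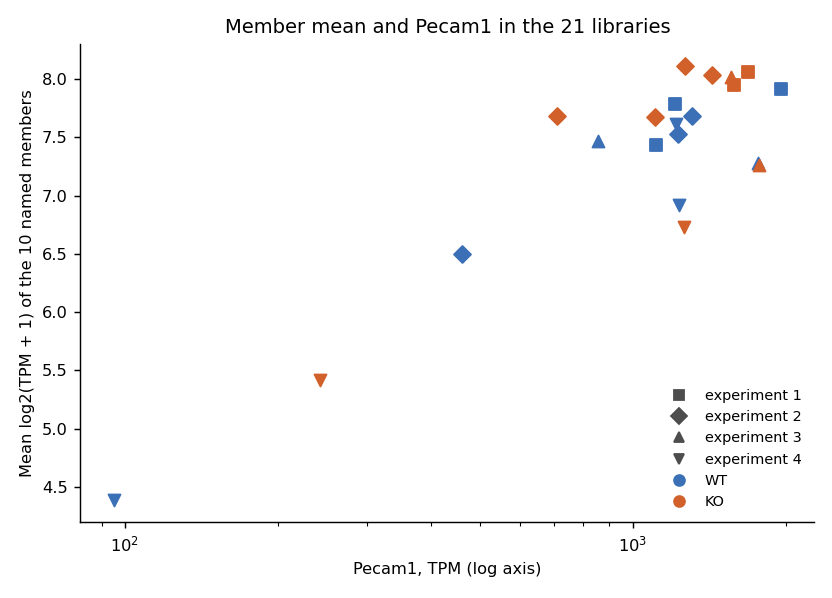
Mean log2(TPM + 1) of the 10 named members against Pecam1 in TPM, on a log axis, in the 21 libraries by experiment and genotype. The 3 libraries with 95.04, 242 and 461 TPM of Pecam1 are also the 3 with the lowest member mean.

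The 8 genes outside the group whose pattern was most like the mean of the members, by Pearson r over 21 libraries with experiment means removed, were Irgm2 (0.973, Spearman rho 0.938), H2-Q4 (0.958), Gm4951 (0.955), Kcnj15 (0.953), Vwf (0.952), Pde4b (0.951), Gvin1 (0.949) and Gda (0.947). The median r of all genes was 0.238. Without the 3 libraries low in Pecam1 their r ran from 0.651 to 0.842, and 0 of these 8 genes were among the 8 most alike.

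Further genes of the GTPase families had differences above 0 for most rows, and none passed. Of 20 further symbols (other GBPs, IRGs, very large inducible GTPases and Mx proteins), 18 rows were tested, 17 had a difference above 0 (36.0% of all genes) with a median of 0.30, and 0 passed (limma, adjusted over all genes), while 4 had an unadjusted p under 0.05 with a higher level in KO (0.948% of all genes). The exception was Gbp8, named for that reason after its value was seen, with a log2 difference of -0.72 (SE 0.38). Its level was low, with a WT mean of 5.59 TPM, a KO mean of 4.29 TPM and 0 in 2 libraries. In experiments 1 to 4 its log2 differences were -0.15, 0.42, -1.80 and -2.03. Of the 18 rows, 13 differed between experiments (29.1% of all genes). Among the 4 with the highest level, Gm4070 had a WT mean of 300 ± 151 TPM (SD, n = 11), a KO mean of 476 ± 151 TPM (SD, n = 10) and a log2 difference of 0.82 (SE 0.35). Gvin1, a very large inducible GTPase, had a log2 difference of 0.26 (SE 0.33), and the IRG effectors Tgtp2 and Tgtp1 had 0.32 (SE 0.41) and 0.17 (SE 0.38). With the leukocyte and macrophage covariate 9 of the 18 rows were above 0, against 22.2% of all genes, with a median of 0.01. Gvin1 then stood at -0.29, Tgtp2 at -0.19 and Tgtp1 at -0.41, while Gm4070 stayed above 0 at 0.27.

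Gbp10 and Gbp11, neighbours of the chromosome 5 members, are named after their values were seen. Gbp10 stood at 128 to 206 TPM in the KO libraries of experiment 2 and at 42.7 to 60.9 TPM in its WT libraries, without overlap. In experiment 3 its KO libraries, at 17.8 and 76.0 TPM, overlapped the WT libraries at 17.4 and 21.1 TPM, and in experiment 4 the KO libraries, at 9.55 and 9.93 TPM, lay inside the WT range of 2.37 to 35.1 TPM. Its log2 differences in experiments 1 to 4 were 1.11, 1.53, 0.92 and 0.06. Over all libraries its log2 difference was 0.96 (SE 0.33, unadjusted p = 0.00753, limma adjusted p = 0.820), and 75.5% of its stretches of 75 bases occur in other genes. The main row of Gbp11, annotated as a polymorphic pseudogene, differed by 1.15 on the log2 scale (SE 0.35, adjusted p = 0.820 by limma), with a WT mean of 1.49 ± 1.59 TPM (SD, n = 11) against 8.17 ± 8.46 TPM (SD, n = 10) for KO. Experiment 2 holds 4 of those 10 KO libraries and had the highest levels, with a KO mean of 17.3 TPM and a WT mean of 3.42 TPM. The log2 differences of Gbp11 in experiments 1 to 4 were 1.66, 2.08, 0.17 and 0.12.

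Transcripts of the interferon-gamma receptor and its signalling chain were present, and no gene of the list passed between genotypes. Of 20 genes in the signalling list 19 were tested, 13 had a difference above 0 (36.0% of all genes) with a median of 0.13, 0 passed and 0 had an unadjusted p under 0.05 (limma), and 9 differed between experiments (29.1% of all genes). With the leukocyte and macrophage covariate 2 of the 19 were above 0, against 22.2% of all genes. Ifng, the cytokine, was listed at 0 in 17 of 21 libraries and reached 0.67 TPM. The receptor chains Ifngr1 and Ifngr2 had log2 differences of -0.17 (SE 0.29) and 0.03 (SE 0.33). The kinases Jak1 and Jak2 had -0.08 (SE 0.28) and 0.19 (SE 0.32). Irf1 had a WT mean of 487 ± 265 TPM (SD, n = 11), a KO mean of 602 ± 297 TPM (SD, n = 10) and a log2 difference of 0.19 (SE 0.30). With that covariate Irf1 stood at -0.29 and Jak2 at -0.37.

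Genes that work with these GTPases at vacuoles and in inflammasomes were split much as all genes were. Of 18 symbols 17 were tested, and 7 of them (41.2%) had a difference above 0, near the 36.0% of all genes, with a median of -0.02. None passed (limma), 1 had an unadjusted p under 0.05 on the lower side, and 8 differed between experiments (29.1% of all genes). Of the 3 with the highest level, Ubb, a ubiquitin gene, had a log2 difference of -0.30 (SE 0.19), Sqstm1, an autophagy adaptor, -0.02 (SE 0.25) and Rnf213, an inducible ubiquitin ligase, 0.38 (SE 0.25).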

How the data were processed

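Total RNA was sequenced with a stranded, ribosome-depleted kit and paired reads of 150 bases, per the labels' protocols. The authors deposited 1 table of TPM for 45706 Ensembl genes in 21 libraries, with decimal commas; column totals lay between 999999.2 and 1000000.6. Per the submitters' processing notes the genome was GRCm38; the choice of aligner and counter is not given in the sources used here. Since TPM holds no depth, no counting interval is given, and a transcript that takes much of a library lowers all others.

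The 13503 genes that reached 1 TPM in 10 or more libraries were tested as log2(TPM + 1) with limma 3.58.1 (R 4.3.3), with an experiment term and a trended, robust variance prior. An F test over the experiments and a test of the genotype by experiment interaction came from the same fits. Adjusted p-values are Benjamini-Hochberg over all genes, with a threshold of 0.05. Differences on this scale understate changes of low genes. The fit was tested on simulated data. Columns were matched to samples by header, and both columns headed KO replicate 3 were kept in experiment 2. Over 10 pairs of libraries with the same replicate number, the correlation of deviations ran from -0.20 to 0.36. The 2 values over 0.1 were both of experiment 4 (0.32 and 0.36). The groups are too small for this check to decide whether the numbers pair libraries, and they were not taken to do so. Gene positions and transcripts were read from GENCODE M21 (45143 identifiers found) and promoters from RefSeq. Named outside the members were, by rule, the 4 further family genes and 3 partner genes with the highest mean, 7 signalling genes (1 is not reported here) and the 8 genes most like the member mean; Gbp8, Gbp10 and Gbp11 were added after their values were seen. The members, the lists and the tests were chosen with earlier results of these data known. In all, 40 alternatives were run.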

Additional observations from a re-analysis of the deposited data

Results flagged for a closer look

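For each of the 11 rows, the 10 KO libraries and the 4 KO libraries of experiment 2 were taken as groups, 22 in all. In each group the highest and the lowest value were set against the gap to the nearest other value, and chance flags about 1 in 20 such groups. WT libraries were not checked in this way, among them WT replicate 2 of experiment 4, which has the lowest member mean. Irgm1 in KO replicate 2 of experiment 4 stood at 31.9 TPM, below the other 9 KO libraries at 158 to 302 TPM, and that library is low in Pecam1. Its gap was 0.467 of the range, just over the limit for a flag. Gbp3 in KO replicate 3b of experiment 2 stood at 67.9 TPM, below the other 3 KO libraries of that experiment at 126 to 137 TPM.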

How the results depend on the processing

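Over 40 alternatives 0 members passed between KO and WT, and 0 passed for the interaction in the 39 that allow one (all but the fit with no experiment term), with the lowest adjusted p of a member at 0.552 (Gbp4, replicate block). Of 440 differences 418 kept the sign given above and 22 turned below 0; the cause was not tested. With the leukocyte and macrophage covariate the log2 differences were -0.32 for Iigp1, -0.28 for Gbp6, -0.24 for Gbp9 and Irgm1, -0.22 for Gbp3 and Gm43302, -0.21 for Gbp5, -0.16 for Gbp2, -0.14 for Gbp7 and -0.12 for Igtp. Without experiment 2 they were -0.079 for Irgm1, -0.077 for Gbp2 and -0.038 for Gbp3, and without experiment 1 -0.30 for Gm43302. Without the 3 libraries low in Pecam1 they were -0.021 for Gbp2 and -0.0057 for Gbp3. With 1 library left out at a time, the lowest and highest difference were 0.022 and 0.30 for Gbp3, 0.057 and 0.34 for Gbp7, 0.084 and 0.35 for Igtp, 0.12 and 0.49 for Gbp5, 0.14 and 0.55 for Gbp6, 0.22 and 0.59 for Gbp9, 0.50 and 0.92 for Gbp4, -0.028 and 0.28 for Gbp2, -0.038 and 0.34 for Irgm1, -0.018 and 0.41 for Iigp1 and -0.044 and 0.52 for Gm43302. The lowest came without WT replicate 2 of experiment 4, except for Irgm1 and Gm43302, and the highest without WT replicate 1 (Gbp3), WT replicate 3 (Gbp7, Iigp1, Gbp4, Gbp6) or KO replicate 2 (the others) of experiment 4. Signs turned without WT replicate 2 of experiment 4 (Gbp2, Irgm1 at -0.017, Iigp1), WT replicate 1 of experiment 2 (Irgm1 at -0.029), KO replicate 1 of experiment 4 (Irgm1) or WT replicate 3 of experiment 1 (Gm43302). Gbp4 stayed above 0 throughout, from 0.14 to 0.95.

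The number of genes called between KO and WT was 1, and it was 2 on a common median or after quantile normalization and 0 with the replicate block or without experiment 1 or 2. The replicate block, a paired fit although the numbers were not taken to pair libraries, gave 11 of 11 members above 0 with a median of 0.36. The number of members that differed between experiments, with the share of all genes in parentheses, was 7 as reported (29.1%), 3 with no filter on low values (9.95%), 2 on a common median (18.5%), 3 after quantile normalization (20.6%), 2 with TPM rescaled without mitochondrial and short structural RNA (13.8%), 1 with KO replicate 3a (17.3%) and 5 with KO replicate 3b (25.02%) placed in experiment 4, 4 with the endothelial covariate (22.7%) and 10 with the leukocyte covariate (38.4%). It was 0 without experiment 2 (0.033%), 1 without experiment 4 (13.3%), 1 without the 3 libraries low in Pecam1 (14.2%), and 2 to 10 with 1 library left out, with 2 without KO replicate 2 (17.4%) and 3 without WT replicate 2 (22.9%) of experiment 4. The median r of the 8 genes most alike was 0.953, 0.972 without centring and 0.853 without the 3 libraries low in Pecam1. The deposited TPM hold no depth, so how far low values such as those of Gm43302 rest on few reads is unknown.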
